A study of Homo sapiens with 6 samples.

Results

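The 77 shRNAs described here target 6 long non-coding RNAs (lncRNAs) known for links to the restraint of growth, namely MEG3, TP53TG1, LINC-PINT, DLEU2, MIR22HG and TUG1. They were found by the gene symbol in the annotation of a pooled library of 7873 shRNAs, a rule that uses no counts, although the 6 genes themselves were picked with earlier results of these data known. The library lists 5 shRNAs against MEG3, 10 against TP53TG1, 5 against LINC-PINT, 22 against DLEU2, 15 against MIR22HG and 20 against TUG1, spread over 18 listed transcripts. A further 4 shRNAs against a LINC-PINT transcript are listed under the microRNA gene MIR29B1 and were left out by this rule.

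In the screen, the human hepatocellular carcinoma line HUH7 was transduced with the lentiviral library, in which each vector also carries puromycin resistance. Puromycin was added at day 2 for 4 days, and the surviving cells were then grown for 4 weeks. The vector inserts were amplified and counted in 3 libraries of the final population, called selected, and in 3 libraries of the plasmid pool before virus production, called the input library. The sources differ on the input library. The study's methods describe it as plasmid, whereas the sample labels give HUH7 genomic DNA for all 6 libraries. The methods are followed here, and the counts were not used to decide between them. On that reading, packaging, transduction, antibiotic selection and growth in culture cannot be told apart in the comparison. Both groups carry the same shRNAs, and no other allele or agent is labelled for the selected cells.

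Each of the 6 RNAs has been studied as a brake on growth. MEG3 is an imprinted RNA of the DLK1 locus that is often silenced in liver cancer. TP53TG1 and LINC-PINT are induced by cellular stress, and LINC-PINT and TUG1 have both been described in complex with the Polycomb repressive complex. DLEU2 and MIR22HG are host transcripts of microRNAs, miR-15a and miR-16 for the former and miR-22 for the latter, and TUG1 was named for its induction by taurine. An shRNA against such a brake would be looked for among the shRNAs that gain cells, whereas the study searched for shRNAs that lose them. Whether each of these RNAs restrains growth in HUH7 cells was not tested here. The counts show how many vectors were recovered. The level of each lncRNA after knockdown was not analysed here.

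The targets of the shRNAs that changed most, and of their closest neighbours, are shown here because the text below turns on how near such targets lie to each other. Each is the 21-base sense target from the annotation of the library, 5′ to 3′, with target positions 14 to 20 in capitals. These pair with bases 2 to 8 of the guide strand, its seed.
TP53TG1 NR_015381 shRNA 3: ttaatcttcggagGCTGAGTt
TP53TG1 ENST00000416560 shRNA 2: cttgggctctttcCTTTAATc
LINC-PINT NR_109850 shRNA 5: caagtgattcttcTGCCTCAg
LINC-PINT NR_109850 shRNA 1: cagctgaagacagAGTCTTAc
DLEU2 ENST00000235290 shRNA 1: cccttgatgtgaaGTCTTACc
TUG1 ENST00000563812 shRNA 3: agatgattcctacCACCTTAc
TUG1 ENST00000563812 shRNA 4: tactgacgaagacACCCATTc
TUG1 ENST00000540687 shRNA 1: tgctgccagcccaGCTAATTa
MEG3 ENST00000398461 shRNA 4: accaccacagccgGCTACTTt
MIR22HG NR_028502 shRNA 2: gttcatcccagcaTTGCAATg
MIR22HG NR_028502 shRNA 3: aggatttagttagTGATAAGa
MIR22HG NR_029494 shRNA 1: gaagctgtgtctgTTCGATTt

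Library totals ranged from 2323330 to 2612829 counts in the input libraries and from 1525256 to 4013368 in the selected libraries, with selected replicate 1 the shallowest. Between input libraries the counts differed by little more than sampling noise (chi-square per degree of freedom 1.09 to 1.11), whereas the selected libraries differed among themselves by 10.8 to 11.9. For the 77 shRNAs the median coefficient of variation was 4.97% in the input library and 16.9% after selection. Separate cultures are not stated for the 3 selected libraries, and the p-values therefore rest on a spread that may be technical. The test used below also fits 1 spread per shRNA to both groups. That spread understates the variation among the selected libraries and overstates that among the input libraries. How far this shifts the adjusted p-values was not tested, and they may be too low.

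Of the 77 shRNAs, 67 reached a mean of 10 counts per library and were tested. The log2(fold change) is the ratio of normalised counts in the input library over the selected population. A positive value means a lower share in the selected population than in the input library. Such an shRNA is said to have fallen, and the opposite to have risen, at whichever step the change arose. Calls needed an adjusted p-value no higher than 0.05, and an shRNA with such a p-value was depleted where the log2(fold change) reached 0.75 and enriched where it was -0.75 or lower (edgeR quasi-likelihood test, Benjamini-Hochberg over the 7232 tested shRNAs of the library). All adjusted p-values below are from this test.

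4 of the 67 shRNAs were depleted and 4 were enriched. Each share is 5.97%, beside 6.83% depleted and 5.85% enriched over all tested shRNAs, so both are near the background. With no limit on the fold, 13 shRNAs fell and 11 rose, or 19.4% and 16.4%, beside 15.4% and 17.4% over the library. The other 43 did not pass the test. The median log2(fold change) of the 67 was -0.0019, beside -0.01 over all tested shRNAs, and 51 of them lay within 1.5-fold in either direction. All 3 selected libraries lay below all 3 input libraries for 21 of the 67 shRNAs and above them for 13, beside 25.6% of tested shRNAs below and 25.6% above.

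Fewer shRNAs passed when any 1 input library was left out. Whether replicate 1, 2 or 3 was omitted, only 2 of the 67 were depleted and 2 enriched, and 5 or 6 fell and 4 rose at any fold. All 24 shRNAs that passed at any fold with the 6 libraries kept their sign in these fits. Whether the lost calls reflect the libraries themselves or their smaller number was not tested. Of the 24 shRNAs that passed at any fold, 9 passed under every alternative in which they could be tested. These were shRNA 4 of MEG3, shRNA 3 of TP53TG1 NR_015381, shRNA 5 of TP53TG1 ENST00000416560, shRNA 2 of MIR22HG NR_028502 and 5 shRNAs of TUG1. The other 15 each lost their call without at least 1 of the input libraries, at adjusted p-values from 0.0522 to 0.174. Without selected replicate 1, 2 or 3, in that order, 0, 5 and 3 of the 24 calls were lost and 9, 4 and 5 others were gained.

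Each of the 6 genes had at least 1 shRNA past the fold limit, and 4 of the 6 had shRNAs that fell and others that rose. None of the 18 transcripts had 2 shRNAs depleted with a log2(fold change) of at least 1 or 3 with at least 0.75, the rule by which the study picked its candidates. By the same rule in the edgeR fit used here, 17 of all 1660 listed transcripts qualified, so few that none among 18 does not set these genes apart. The 1660 include protein-coding targets besides 1543 lncRNA transcripts. DESeq2 gave 17 without its beta prior and 5 with it. The study, which used DESeq2, reported fewer candidates than 17, all of them lncRNAs. The rule could not be met by DLEU2 ENST00000449579, with 1 shRNA, or by DLEU2 ENST00000458725, whose 2 shRNAs were untested.

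MEG3 lies on chromosome 14 (GRCh37 chr14:101245747-101327368, plus strand). Of its 5 shRNAs, all tested, 2 rose (40%) and none fell, beside 17.4% rising and 15.4% falling over the library. This difference was not tested. Their targets lie within 267 bases of exon 1 of ENST00000398461, and this stretch is contained in only 2 of the 50 annotated MEG3 transcripts. It is also rich in repeated sequence, since 4 of the 5 targets match more than 1 place in the genome, with 2, 33, 463 and 3745 exact matches.

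shRNA 4 of MEG3 had 301, 317 and 285 normalised counts in the input libraries and 562, 507 and 512 after selection. The groups did not overlap, and the mean rose from 301 ± 16.3 to 527 ± 30.4 (SD, n = 3 each), a log2(fold change) of -0.81 with a standard error of 0.11 (adjusted p = 0.00153). Its target, shown above, has 2 matches in the genome (chr14:101299746-101299766 in MEG3). This call held under all 14 alternatives in which it could be tested.

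shRNA 3 of MEG3 rose less, from 376, 397 and 353 to 622, 506 and 469 (log2(fold change) -0.50 ± 0.13 SE, adjusted p = 0.0180). Its target matches 33 places and overlaps that of shRNA 5 by 7 bases. shRNA 5, with 3745 matches in the genome and exons of 48 genes, had a value of -0.31 ± 0.15 (adjusted p = 0.135). The remaining pair did not pass either.

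shRNA 1 is the one MEG3 shRNA whose target is unique in the genome. It went the other way, from 94.1, 96.6 and 105 to 86.2, 60.1 and 38.2, without passing the test (0.72 ± 0.31 SE, adjusted p = 0.104). Without selected replicate 1, the highest of the 3 selected values, it would be called depleted (1.02, adjusted p = 0.0111). shRNA 2, with 463 matches, stood at -0.02 ± 0.11.

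TP53TG1 lies on the minus strand of chromosome 7 (chr7:86952259-86974876). 7 of its 10 shRNAs were tested, of which 2 fell (28.6%) and 1 rose (14.3%), beside 15.4% and 17.4% over the library. This difference was not tested. The gene held the most strongly depleted shRNA of the 77.

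shRNA 3 of NR_015381 had 28, 32 and 22 counts in the input libraries and 0, 1 and 0 after selection. That is 82 counts against 1 in total, a ratio of 91.6 per unit of library size (95% exact interval 16.0 to 3661, covering counting error only). The fitted log2(fold change) was 6.05 ± 0.84 SE (adjusted p = 0.00161), a size that depends on the single selected count. Over the alternatives the value ranged from 1.45 to 7.83. At a mean count of at least 100 this shRNA was not tested. Its target is unique in the genome and lies in exon 1 of ENST00000359941 (chr7:86974371-86974391), and it is contained in 15 of 23 annotated TP53TG1 transcripts.

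The nearest target of the same gene, that of shRNA 2 of ENST00000416560, shares 6 bases with it (chr7:86974386-86974406). This shRNA had 12 counts over the input libraries and 0 after selection, at least 4.47-fold lower against a floor of 3 counts over the group. It was too rare to be tested. In a fit without the filter on low counts its adjusted p was 0.0248, beside 0.00136 for its neighbour. Both were rare in the plasmid pool, at 29.2 ± 6.84 and 4.16 ± 1.90 normalised counts, whereas the median of the 67 tested shRNAs was 375.

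Targets elsewhere in TP53TG1 gave smaller values. shRNA 5 of ENST00000416560 rose from 426, 376 and 386 to 679, 506 and 658, with all selected libraries above the input (-0.63 ± 0.13 SE, adjusted p = 0.00759). shRNA 2 of NR_015381, whose target shares 8 bases with it, had 175, 193 and 167 before and 327, 162 and 167 after selection (-0.27 ± 0.27, adjusted p = 0.473), so that only selected replicate 1 was higher. shRNA 1 of ENST00000421293, whose target lies in the same stretch of the gene (chr7:86970895-86970915, against chr7:86970945-86970965 for shRNA 5), fell slightly (0.44 ± 0.14, adjusted p = 0.0416).

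None of the 3 other tested TP53TG1 shRNAs passed, with values from -0.18 to 0.17. Among them, shRNA 1 of NR_015381 in the last exon was abundant and nearly level, with 1041, 960 and 947 normalised counts in the input and 954, 970 and 873 after selection (0.08 ± 0.08). Besides the shRNA with 12 counts, both other untested shRNAs had at most 2 counts in all 6 libraries together.

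LINC-PINT lies on the minus strand of chromosome 7 as well (chr7:130476023-130794935). All 5 shRNAs against NR_109850 were tested, and 1 was depleted, 1 was enriched and 1 more rose. Over the library 6.83% were depleted and 5.85% enriched, and 17.4% rose at any fold. The difference from the library was not tested. The direction of change was thus mixed within a single listed transcript.

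shRNA 5 of LINC-PINT fell from 76.9, 52.3 and 74.5 normalised counts to 34.1, 17.9 and 30.8 (log2(fold change) 1.32 ± 0.36 SE, adjusted p = 0.0210). Its target is not specific, with 4788 exact matches in the genome and exons of 76 genes. 14 other tested shRNAs of the library share its seed, TGAGGCA, and their median log2(fold change) was -0.21.

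shRNA 1 rose from 62.7, 63.7 and 60.0 to 98.8, 144 and 125 (-0.99 ± 0.23 SE, adjusted p = 0.0112). Its target spans the junction of exons 3 and 4 of ENST00000451786, matches no other gene and is contained in 6 of 69 annotated transcripts. Without any 1 of the input libraries neither call passed, with adjusted p-values up to 0.114 for shRNA 5 and 0.0676 for shRNA 1.

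shRNA 4 rose from 464, 443 and 429 to 668, 510 and 688 (-0.48 ± 0.13, adjusted p = 0.0195). It shares 11 bases with the target of shRNA 2 (-0.20 ± 0.13, adjusted p = 0.271), and both targets are repeated in the genome, with 338 and 1173 matches. shRNA 3, the one whose target is unique and is contained in 50 of the 69 transcripts, had overlapping groups (-0.06 ± 0.18, adjusted p = 0.834).

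DLEU2 lies on the minus strand of chromosome 13 (chr13:50530806-50699856), around the miR-15a and miR-16-1 genes. 20 of its 22 shRNAs were tested. 4 fell, 1 of them past the fold limit, and none rose. Over the library, 15.4% of tested shRNAs fell and 17.4% rose at any fold. In 9 of the 20 DLEU2 shRNAs all selected libraries lay below the input, and in 1 all lay above it, beside 25.6% and 25.6% over the library. This difference from the library was not tested. The median log2(fold change) over the 20 was 0.26, the highest of the 6 genes.

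The values were not spread evenly over the transcripts. All 5 shRNAs listed for ENST00000235290 had positive values, from 0.39 to 1.17 with a median of 0.79. The medians were -0.07 for ENST00000421758, 0.33 for ENST00000425586 and -0.03 for ENST00000621282. Over all tested shRNAs of the library the median was -0.01. The difference between transcripts was not tested, and ENST00000235290 was singled out after its values were seen.

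shRNA 1 of ENST00000235290 fell from 106, 92.1 and 94.2 normalised counts to 68.3, 43.9 and 58.3 (0.79 ± 0.25 SE, adjusted p = 0.0397). Its target has a single match, inside DLEU2 but in no exon of the annotation used (chr13:50623792-50623812). The call is close to the threshold. It was lost with any 1 library left out other than selected replicate 1.

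shRNA 3 and shRNA 4 had larger values that did not pass in the edgeR test with all 6 libraries. shRNA 3 had 178, 192 and 177 in the input and 26.9, 118 and 113 after selection (1.02 ± 0.39, adjusted p = 0.0731), with selected replicate 1 far below the other two. Without that library the value was 0.66 and passed the test (adjusted p = 0.00653), below the fold limit. It also passed in DESeq2 (1.06, adjusted p = 0.0321, without the beta prior, and 0.74, adjusted p = 0.0317, with it). shRNA 4 had 34.4, 43.2 and 38.3 before and 8.98, 25.1 and 15.4 after (1.17 ± 0.43, adjusted p = 0.0648). Without selected replicate 2, the highest of these, it passed (1.56, adjusted p = 0.0202).

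Their targets lie close together in exon 4 of ENST00000433070. The target of shRNA 4 (chr13:50618639-50618659) is followed by that of shRNA 3 (chr13:50618709-50618729), and then by that of shRNA 5 (chr13:50618757-50618777). shRNA 5 fell from 421, 424 and 437 to 287, 309 and 372 (0.39 ± 0.13, adjusted p = 0.0406). Both untested DLEU2 shRNAs, listed for ENST00000458725, target this exon too and had 6 counts against 0 and 0 against 1.

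Beyond this transcript, shRNA 3 of ENST00000425586 fell from 594, 576 and 585 to 361, 459 and 413 (0.50 ± 0.11 SE, adjusted p = 0.00916). Its target crosses the junction of exons 2 and 3, and its only uninterrupted match in the genome is in DLEU2L, a related gene elsewhere. 8 of the 22 DLEU2 targets match exons of DLEU2L. shRNA 1 of ENST00000449579, one of these, fell by a similar amount (0.46 ± 0.14, adjusted p = 0.0365).

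Overlapping DLEU2 targets did not always give like values. shRNA 1 and shRNA 2 of ENST00000421758 share 13 of 21 bases across the junction of exons 1 and 2. The first was rare, with 12.1, 13.6 and 5.17 normalised counts before and 18.0, 25.1 and 26.8 after selection (-1.20 ± 0.50, adjusted p = 0.0967, and -1.33 with 0.0394 without selected replicate 1), whereas the second was at 0.19 ± 0.15. In another pair sharing 17 bases, shRNA 3 of ENST00000621282 had -0.32 ± 0.14 and shRNA 2 of ENST00000235290 had 0.66 ± 0.40, and neither passed. The latter had 117, 32.3 and 65.0 normalised counts after selection, and its value was 1.14 without selected replicate 1 (adjusted p = 0.0155) and 0.32 without selected replicate 2 (adjusted p = 0.416).

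No DLEU2 target overlaps a mature microRNA of the locus. The mature sequence of miR-15a-5p lies at chr13:50623303-50623324, and the nearest DLEU2 target within a single exon is 423 bases away.

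MIR22HG lies on the minus strand of chromosome 17 (chr17:1614741-1620468). 13 of its 15 shRNAs were tested, of which 5 rose, 2 of them past the fold limit, and 1 fell. At any fold 38.5% rose and 7.69% fell, beside 17.4% and 15.4% over the library. Enriched were 15.4%, beside 5.85%. These differences were not tested. All 15 targets are unique in the genome and lie in exon 4, the last, of ENST00000334146 or ENST00000573075. The 5 shRNAs listed for NR_029494, an accession that RefSeq gives to MIR22, have their targets in that exon of ENST00000573075, at least 1019 bases from the mature miR-22-3p sequence (chr17:1617208-1617229).

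shRNA 2 of NR_028502 rose from 429, 396 and 387 normalised counts to 875, 654 and 659 (-0.84 ± 0.13 SE, adjusted p = 0.00226). The groups did not overlap, and it passed the test with any 1 library left out, although without selected replicate 1, the highest, its value was -0.70.

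The target of shRNA 3 of the same transcript is separated from it by 1 base on the chromosome (chr17:1615232-1615252, against chr17:1615210-1615230). That shRNA fell, from 740, 740 and 778 to 469, 578 and 634 (0.41 ± 0.11 SE, adjusted p = 0.0217). The seeds of this pair, ATTGCAA and CTTATCA, differ. On the other side, 17 bases away, shRNA 1 of NR_028504 had 161, 172 and 171 before and 122, 136 and 72.3 after selection (0.62 ± 0.25, adjusted p = 0.0819). It passed without selected replicate 1 (0.70, adjusted p = 0.0499) or 2 (0.84, adjusted p = 0.0324).

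shRNA 1 of NR_029494 rose from 61.7, 62.5 and 64.2 to 79.0, 192 and 113 (-1.04 ± 0.32 SE, adjusted p = 0.0338). The selected libraries varied widely, and without selected replicate 2 the value was -0.64 and did not pass. The call was also lost without each of the input libraries, with adjusted p-values up to 0.119. shRNA 3 of NR_029494 rose from 807, 805 and 819 to 1155, 1128 and 932 (-0.40 ± 0.09, adjusted p = 0.0111).

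shRNA 4 and shRNA 5 of NR_028504, with targets 17 bases apart towards the end of the exon, also rose (-0.48 ± 0.12, adjusted p = 0.0152, and -0.55 ± 0.16, adjusted p = 0.0286). shRNA 3 of NR_028504 was the steadiest of the 15. It had 1336, 1331 and 1280 in the input and 1315, 1277 and 1282 after selection, a value of 0.03 ± 0.06. Both untested MIR22HG shRNAs had at most 2 counts in all libraries together.

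TUG1 lies on the plus strand of chromosome 22 (chr22:31365231-31375381), and all 20 targets are unique in the genome. 17 shRNAs were tested. 5 fell, 1 of them past the fold limit, and 1 rose. At any fold 29.4% fell and 5.88% rose, beside 15.4% and 17.4% over the library. Depleted were 5.88%, beside 6.83%. These differences were not tested.

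shRNA 3 of ENST00000563812 fell from 147, 155 and 171 normalised counts to 59.3, 92.3 and 62.3 (log2(fold change) 1.13 ± 0.23 SE, adjusted p = 0.00696). The call held with every single library left out. Its target is in exon 2 (chr22:31368941-31368961) and in 19 of the 20 annotated TUG1 transcripts.

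The adjoining target begins at the next base (chr22:31368962-31368982) and is contained in the same number of transcripts. That shRNA, shRNA 4 of ENST00000563812, had 248, 275 and 267 before and 517, 265 and 272 after selection. Only selected replicate 1 stood above the input, and the value did not pass (-0.39 ± 0.24, adjusted p = 0.247). The other 3 shRNAs listed for this transcript lay between -0.22 and 0.44 without passing, although all 5 targets fall within 188 bases.

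The seed of shRNA 3, TAAGGTG, is shared with 4 other tested shRNAs of the library, whose median log2(fold change) was -0.16 and of which none was depleted. One of these is shRNA 2 of TP53TG1 NR_015381, described above at -0.27.

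Towards the start of the gene, shRNA 1 of ENST00000540687 had 14, 14 and 19 counts in the input and 2, 0 and 0 after selection. The total of 47 against 2 is a ratio of 26.2 (95% exact interval 6.87 to 223, counting error only). It missed the limit on the mean count, and in the fit without that limit its adjusted p was 0.00875. Further along exon 1, shRNA 2 of this transcript was the most abundant of the 77 and the most precise. It fell from 2364, 2352 and 2331 to 1669, 1713 and 1580 (0.51 ± 0.05 SE, adjusted p = 7.2e-04).

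The 5 shRNAs listed for ENST00000569149, with targets downstream of this within 593 bases, gave no depleted call. shRNA 3 rose from 457, 451 and 487 to 670, 656 and 666 (-0.51 ± 0.09, adjusted p = 0.00331), and the others lay between -0.20 and 0.04. Leaving out any 1 library did not end the call of shRNA 3.

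The shRNAs listed for NR_002323 lie further downstream, in exon 4 of ENST00000519077, and all 4 tested had positive values. shRNA 5 fell from 433, 449 and 408 to 291, 235 and 291 (0.66 ± 0.13 SE, adjusted p = 0.00581). shRNA 1 fell from 713, 713 and 683 to 507, 423 and 542 (0.52 ± 0.11, adjusted p = 0.00758). shRNA 3 fell from 788, 767 and 779 to 487, 659 and 582 (0.43 ± 0.11, adjusted p = 0.0181). shRNA 2 stood at 0.22 ± 0.11 (adjusted p = 0.146), and the fifth shRNA had no count in any library. The changes were small, between 0.632 and 0.745 of the input level for the 3 that fell, and none reached the fold limit. Over all tested shRNAs of the library the median log2(fold change) was -0.01 and 15.4% fell. This transcript's difference from the library was not tested.

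Across the 6 genes, 54 of the 77 targets (70.1%) match a single place in GRCh37, beside 33.3% of the targets of all lncRNA shRNAs. Of these 54, 2 match only outside their own gene, in DLEU2L. A further 13 (16.9%, against 61.8%) match several places, and 10 have no uninterrupted match. In all, 10 targets cross an exon junction, and 2 DLEU2 targets were found in neither genome nor transcripts. Of the 48 tested shRNAs with a single match, 3 were depleted and 2 enriched, and of the 11 with several matches 1 was depleted and 1 enriched. Over all tested shRNAs of the library, 6.83% were depleted and 5.85% enriched. No difference by number of matches was tested.

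Abundance in the plasmid pool went with the size of the values. Among the 13 tested shRNAs with an input mean under 100 normalised counts, the median absolute log2(fold change) was 0.79 and 5 were past the fold limit. Among the 54 others it was 0.34 and 3 were past the limit. Over all tested shRNAs of the library, at any abundance, 6.83% were depleted and 5.85% enriched. The share among equally rare shRNAs of the library was not computed. The part of input abundance in these calls was not tested.

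Among the 77 targets, 12 overlapping pairs within genes were counted, sharing from 2 to 17 bases. Where a target crosses an exon junction, an overlap was counted only if at least 8 bases matched end to start. Other overlaps of such targets were missed, so 12 is a minimum. In 8 of the 12 both shRNAs were tested, and in 3 of the 8 the values had opposite signs. Such shRNAs share a stretch of their target and are not independent of each other.

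The seed of 7 of the 77 guides equals that of a mature human microRNA in the RefSeq table (9.1%, beside 12.8% of lncRNA shRNAs). Of the 8 shRNAs past the fold limit, 3 are among these. The seed of shRNA 3 of TP53TG1 NR_015381, ACTCAGC, is that of miR-512-5p, the seed of shRNA 1 of LINC-PINT, TAAGACT, is that of miR-499a-5p, and the seed of shRNA 4 of MEG3, AAGTAGC, is that of miR-562. Other tested shRNAs with these seeds had medians of 0.22 (n = 2), 0.70 (n = 2) and 0.46 (n = 3), so that for LINC-PINT and MEG3 the sign was opposite.

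Other lncRNAs with links to growth control were counted from a fixed list. Of its names, 7 were in the annotation (ADAMTS9-AS2, EPB41L4A-AS1, LINC-ROR, LINC00467, LINC01021, NEAT1 and PVT1), with 59 shRNAs, of which 54 were tested. 10 fell (18.5%), 5 of them past the fold limit (9.26%), and 9 rose (16.7%), 3 of them past it (5.56%). Over all tested shRNAs 15.4% fell and 17.4% rose, and 6.83% were depleted and 5.85% enriched. Their median log2(fold change) was -0.01. The smallest adjusted p-value was that of shRNA 5 of NR_030343, listed here under NEAT1, the gene of a structural RNA of nuclear paraspeckles. This shRNA fell from 100.2, 101 and 90.0 to 30.5, 26.0 and 22.1 (1.91 ± 0.27 SE, adjusted p = 0.00179). The next were shRNA 3 of PVT1 ENST00000523190, which rose (-1.07 ± 0.16, adjusted p = 0.00207), and shRNA 2 of ADAMTS9-AS2 ENST00000460833, which rose (-0.74 ± 0.11, adjusted p = 0.00223).

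The library also holds 48 shRNAs against reporter and resistance genes, for which HUH7 has no target of its own apart from the puromycin resistance gene of the vector. Of 43 tested, 6 fell (14%), 4 of them past the fold limit (9.3%), and 12 rose (27.9%), 3 of them past it (6.98%). The shares over all tested shRNAs were 15.4% and 6.83% for those that fell, and 17.4% and 5.85% for those that rose.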

How the data were processed

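The deposited values are whole, unnormalised read counts per shRNA for 6 libraries. Per the labels and the study's methods, the authors amplified the inserts by PCR without molecular identifiers, used Cutadapt 1.4.2 for trimming and BWA 0.7.10 for alignment to the library, and summarised the counts with SAMtools 1.3 and Perl programs of their own.

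In R 4.3.3, shRNAs with a mean count of 10 or more were tested by the quasi-likelihood method of edgeR 4.0.16 after TMM scaling, with no block. Normalised counts were scaled to the mean effective library size. Standard errors were obtained by dividing the log2(fold change) by the root of the F statistic. Counts were simulated for 7255 shRNAs with 200 changed, with 1 spread for all shRNAs of a group. Recovered were 50 of 50 shRNAs at a log2 of 2, 49 of 50 at -2, 31 of 50 at 1 and 32 of 50 at -1. There was 1 false call. In the real counts the spread differs between shRNAs, so this gives no rate of false calls for them. Exact intervals used scipy 1.17.1 in Python 3.11.15. Targets were matched without mismatches to GRCh37 and to GENCODE release 44 mapped to it, and microRNAs came from RefSeq.

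Full values are given for each depleted or enriched shRNA, for shRNAs with at most 3 counts in 1 group and at least 30 in the other, and for the smallest adjusted p-value below the fold limit in each gene. Other shRNAs were named after their values were seen. The genes and lists were chosen with earlier results of these data known. As alternatives, scaling used RLE or totals alone, the filter was dropped or raised to 100, DESeq2 1.42.0 was run with or without its prior, the spread was estimated robustly, the replicate number entered as a block, libraries were omitted in turn, and targets were limited to exons of no other gene.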

Additional observations from a re-analysis of the deposited data

How the results depend on the processing

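The depletion and enrichment counts stood at 4 and 4 with RLE size factors, library totals or a robust spread estimate. Without a filter 6 were depleted, the additional pair being the rare shRNAs of TP53TG1 and TUG1 described above. With a mean count of at least 100 only 1 was depleted, since fewer shRNAs were tested, and the listed other lncRNAs and the reporter and resistance shRNAs then had 2 depleted each. DESeq2 gave 5 depleted without and 3 with its beta prior. Of the 4 depleted shRNAs, 3 had targets in exons of no other gene.

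With 1 library left out, depleted shRNAs ranged from 2 to 6 and enriched shRNAs from 2 to 4, those that fell at any fold from 5 to 19 and those that rose from 4 to 14. The lowest counts came without an input library, 2 depleted and 2 enriched without replicate 1, 2 or 3. Without selected replicate 1, 19 shRNAs fell and 14 rose at any fold. Among the listed other lncRNAs the depleted count ranged from 3 to 6 and the enriched count from 2 to 4, and among the reporter and resistance shRNAs from 2 to 7, with 7 without selected replicate 3, and from 2 to 4. Of the 24 shRNAs that passed at any fold, 9 passed under every alternative in which they could be tested. 4 of these were past the fold limit in the counts above. The other 15 were lost without at least 1 input library. None changed sign.

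With the replicate number as a block, 4 were depleted, 4 were enriched, 11 fell and 11 rose at any fold. Calls were lost for shRNA 1 (adjusted p = 0.0778) and shRNA 5 (0.0559) of DLEU2 ENST00000235290 and for shRNA 1 of TP53TG1 ENST00000421293 (0.0976), and 1 was gained, for shRNA 3 of DLEU2 ENST00000235290 (1.19, 0.0204), so that the 4 depleted are not the same 4. The deviations of same-numbered libraries correlated at -0.0077, 0.0058 and -0.034, so the numbers were not taken to pair the samples.

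No member transcript met the candidate rule under any alternative, while 3 to 30 of the 1660 listed transcripts did. With so few in the whole library, this does not set the member transcripts apart. 10 of the 77 shRNAs had too few counts to be tested, 2 of them with no count in any library. Whether depth or their share of the pool set this was not tested.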
